A study of Homo sapiens with 6 samples.

Results

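Desmosomes are spot-like junctions that anchor the keratin filaments of neighbouring epithelial cells to each other. The genes described here encode parts of that junction and were chosen by name: DSP, DSG2, DSC2, DSC3, JUP, PKP2, PKP3, PKP4 and PERP, 9 of the 58825 genes in the deposited gene table, with 60 of its 208460 transcripts. The cells were PC9, a human lung adenocarcinoma line with an activating EGFR mutation. Per the labels, they overexpressed the transcription factor FOXM1 with either the A or the G allele of rs3742076, at 3 libraries per allele. Every library came from cells given 100 nM of the EGFR inhibitor gefitinib for 24 h. No library without FOXM1 overexpression or without gefitinib was analysed here, and how the alleles were introduced is not given in the labels. The study asks about the variant in gefitinib resistance, and its tables compare G with A.

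In a desmosome, cadherins of the desmoglein (DSG) and desmocollin (DSC) families cross the membrane and bind those of the next cell. Their tails hold plakoglobin, encoded by JUP, and the plakophilins (PKP), which are armadillo-repeat proteins related to β-catenin and p120 catenin. Desmoplakin, encoded by DSP, links this plaque to keratin filaments. Simple epithelia mainly use desmoglein 2 and desmocollin 2, whereas desmogleins 1 and 3, desmocollins 1 and 3 and plakophilin 1 belong to stratified epithelia such as the epidermis. PERP is a tetraspan membrane protein of desmosomes and a target of p53 and p63.

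Values are FPKM, a count of fragments divided by a length and by the library's mapped fragments. For the members, the gene values behaved as if divided by a fixed length per gene, whichever transcripts were expressed. The order of different genes below therefore holds for these gene values and can differ for transcript values. Between 12451 and 12548 genes reached 1 FPKM in an A library and between 12700 and 12858 in a G library. The summed FPKM was 270219 to 277596 in A and 253706 to 255269 in G libraries. Mitochondrial genes held 22.1% to 22.2% of all FPKM in the A group and 17.7% to 19.7% in the G group. The groups thus differed in all these library values without overlap. FOXM1 itself was at 25.5, 10.5 and 10.1 FPKM in A replicates 1, 2 and 3 and at 14.6, 14.3 and 13.96 FPKM in G replicates 1, 2 and 3 (exact two-sided permutation p = 1, where 3 against 3 cannot go below 0.1). A replicate 1 thus stood apart from the other A libraries, and some of the values below are also given without it. EPCAM, CDH1, KRT7, KRT8, KRT18 and KRT19, which mark an epithelial cell, were at 37.1 FPKM or more in every library, but the lung factor NKX2-1 did not exceed 0.196 FPKM. The summed markers of squamous and basal epithelium reached at most 1.26 FPKM, those of fibroblasts 2.26, of leukocytes 1.51, of endothelium 0.71 and of muscle 2.90 FPKM, against at least 2613 FPKM for the 7 lung epithelial markers. DCN, LUM and DSG3 had no estimate in any library. The sum of the lung epithelial markers was 2789 to 3341 FPKM in A and 2613 to 2865 FPKM in G libraries, ranges that overlap. KRT7, KRT8, KRT18 and KRT19, its largest parts, had lower means in G. EPCAM had means of 114.6 FPKM with A and 114.8 FPKM with G, and CDH1 of 45.9 and 50.9 FPKM. The part of these marker differences in the values below was not tested. In bulk RNA, fewer cells of a type and less RNA per cell cannot be told apart.

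By gene value DSP had the highest mean of the members, at 87.7 to 129 FPKM over the 6 libraries. JUP was next at 85.5 to 110.3 FPKM and then PERP at 83.3 to 96.2 FPKM. These ranges overlap, so the order of the leading members was not fixed: by gene value JUP was above DSP in every A library and below it in every G library. Summed over transcripts instead, JUP was above DSP in every library. In G replicate 1 the main JUP transcript, at 83.1 FPKM, was 48.9% of the JUP transcript sum. The main DSP transcript, at 102 FPKM, was 71.9% of the DSP sum there. By gene value DSG2 followed at 34.3 to 50.05 FPKM and PKP2 at 27.7 to 36.1 FPKM, also overlapping. Summed over transcripts, PKP2 was above DSG2 in every library. In A replicate 1 their main transcripts were at 52.3 FPKM for PKP2 and 44.6 FPKM for DSG2. PKP3 lay below PKP2 in every library, at 21.2 to 27.0 FPKM. These 6 members were above 20 FPKM in every library, while PKP4 was at 3.41 to 4.53 FPKM and DSC2 at 1.80 to 2.42 FPKM. DSC3 was the member listed near 0, with no estimate in 4 libraries and 0.0053 and 0.0080 FPKM in A replicate 2 and G replicate 3. By mean gene value DSP ranked 270, JUP 303 and PERP 340 among the 12787 genes tested, whereas DSC2 ranked 9968.

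**Figure D1:**
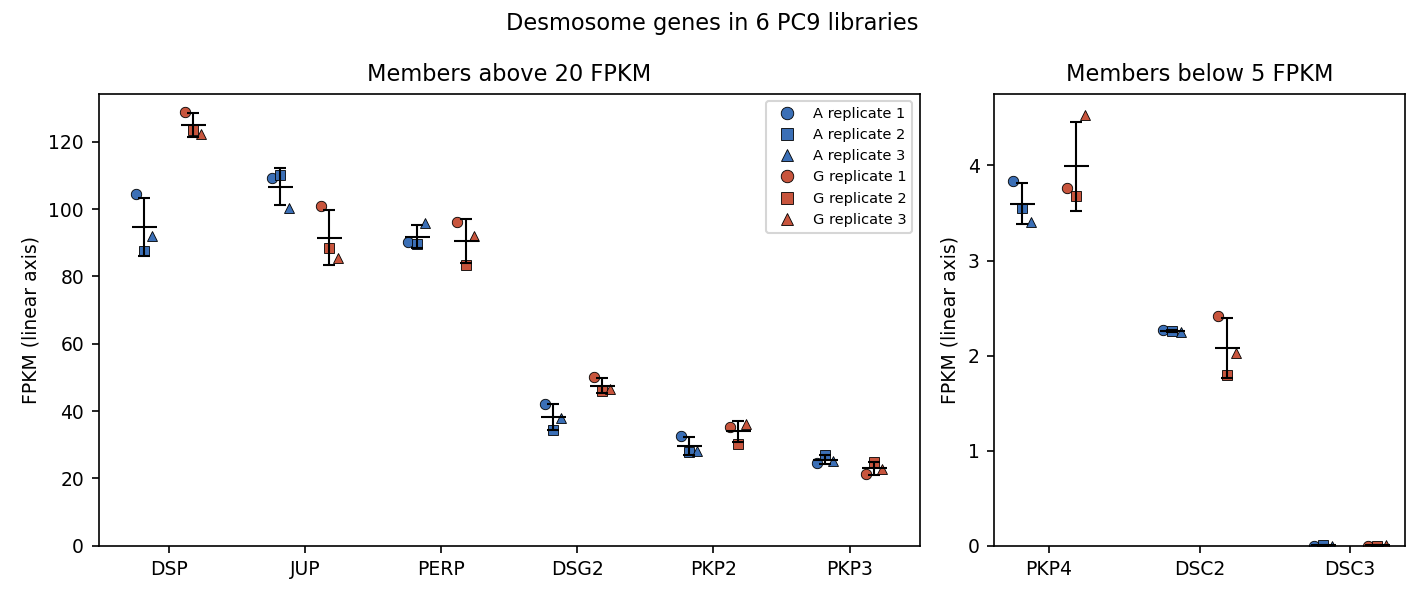
FPKM of the 9 desmosome genes in each library (linear axes starting at 0; points are libraries, coloured by allele, and black bars are the group mean ± SD, n = 3). DSP and DSG2 are the members whose G libraries all lie above the A libraries.

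The desmosomal cadherin genes lie side by side on chromosome 18, from 30989365 to 31549008 on GRCh38, a stretch of 560 kb. In chromosomal order they are DSC3, DSC2, DSC1, DSG1, DSG4, DSG3 and DSG2. Of these 7 genes DSC2 and DSG2 reached 1 FPKM in every library. The others did not exceed 0.11 FPKM anywhere, a value set by DSC1 in G replicate 3, and DSG3 had no estimate in any library. DSG2 lies at the far end of the cluster, next to DSG3. By gene value, the ratio of DSG2 to DSC2 was 18.6, 15.2 and 16.9 in A replicates 1, 2 and 3 and 20.7, 25.7 and 22.9 in G replicates 1, 2 and 3. Summed over transcripts the ratio was smaller in every library, and the groups overlapped. A replicate 3 had 40.4 FPKM of the main DSG2 transcript beside 0.53 and 2.05 FPKM of the 2 leading DSC2 transcripts. G replicate 3 had 49.3 FPKM beside 2.67 and 0.92 FPKM. This ratio of levels was not tested, since it was formed with the values known.

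**Figure D2:**
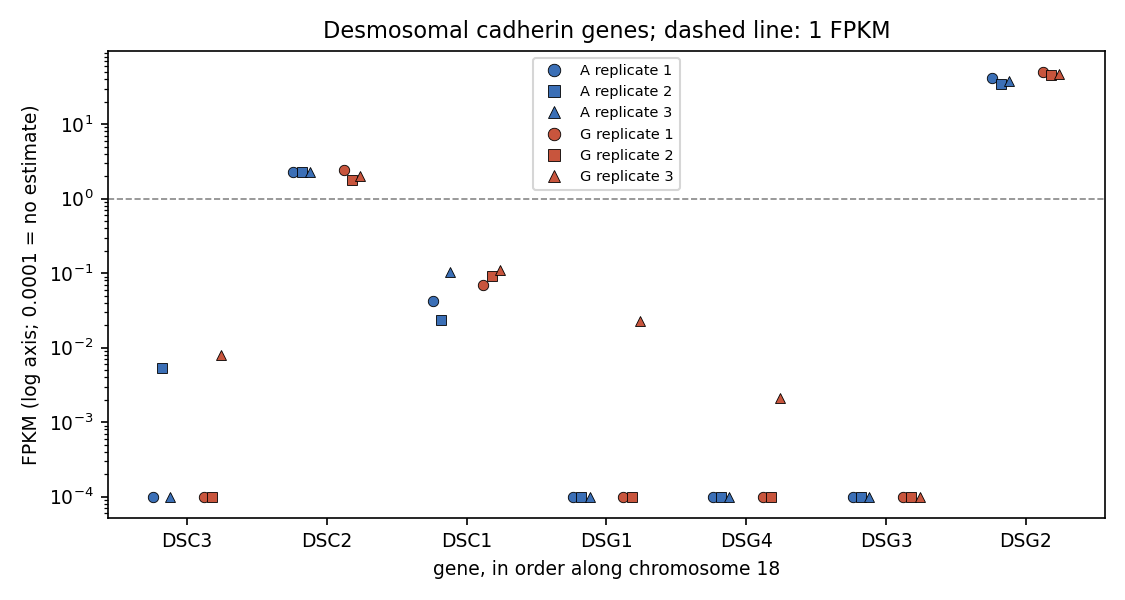
FPKM (log axis) of the 7 desmosomal cadherin genes in their order along chromosome 18, 1 point per library; 0.0001 stands for no estimate. DSC2 and DSG2 lie above the dashed line at 1 FPKM, and the other 5 genes below it.

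The question of the series is whether the 2 alleles differ, and for the desmosome genes no difference passed the test. Of the 9 members 8 passed the filter of at least 1 FPKM in at least 3 libraries and were tested with limma, fitted over all 12787 genes. None was called higher or lower at an adjusted p under 0.05, beside 0.109% of all genes tested (0.0313% higher and 0.0782% lower in G). At an unadjusted p under 0.05 it was 3 members, DSP, DSG2 and JUP, beside 17.3% of all genes. The groups did not overlap for 2 of the 8, both higher in G, beside 15.4% of all genes not overlapping and higher in G, and 0 members were lower without overlap, beside 9.57%. Log2 changes were positive in 4 members and negative in 4, with a median of 0.05, where the median over all genes tested was 0.02. In the authors' deposited table the lowest q-value of a member was 0.59, for DSP, which was also the member with a deposited p-value under 0.05 (0.012).

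Desmoplakin, the link to keratin (ENSG00000096696, chromosome 6, 7541617 to 7586714, plus strand), was at 104, 87.7 and 92.1 FPKM in A replicates 1, 2 and 3 and at 129, 124 and 122 FPKM in G replicates 1, 2 and 3. All G libraries lay above all A libraries, and the A libraries were more scattered than the G libraries. The means were 94.7 ± 8.64 and 125.0 ± 3.48 FPKM (SD, n = 3), a ratio of 1.32. On the log2(FPKM + 1) scale, G minus A, the difference was 0.40 ± 0.072 (SE; 95% interval 0.23 to 0.57; limma adjusted p = 0.15). Without A replicate 1, whose DSP value lay nearest to the G libraries, it was 0.47 (limma adjusted p = 0.068). With the mitochondrial genes left out and the rest rescaled it was 0.45 (limma adjusted p = 0.16). With equal sums of FPKM per library the DSP change was 0.51 (limma adjusted p = 0.080), where the median of all genes was 0.11. Over the 17 alternative settings of the fit its adjusted p ranged from 0.068 to 0.36.

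Among the cadherins, DSG2 (ENSG00000046604, chromosome 18, 31498177 to 31549008, plus strand) followed DSP most closely. It was at 42.1, 34.3 and 38.0 FPKM in A replicates 1, 2 and 3 and at 50.05, 46.1 and 46.5 FPKM in G replicates 1, 2 and 3. Here too the groups did not overlap, and A replicate 1 was the highest A library. This gave a log2 change of 0.31 ± 0.083 (SE; 95% interval 0.11 to 0.51; limma adjusted p = 0.19). Without A replicate 1 the DSG2 change was 0.39 (limma adjusted p = 0.10), and without A replicate 2 it was 0.24 (limma adjusted p = 0.40). With equal sums of FPKM per library it was 0.42 (limma adjusted p = 0.088). These were the ends of its range of adjusted p over the 17 settings, 0.088 to 0.40. DSC2, the desmocollin expressed here (ENSG00000134755, chromosome 18, 31058840 to 31102522, minus strand), was at 2.27, 2.26 and 2.25 FPKM in A libraries and 2.42, 1.80 and 2.03 FPKM in G libraries. G replicate 1 lay above and the other G libraries below all A libraries (log2 change -0.09, 95% interval -0.31 to 0.14, limma adjusted p = 0.66). The DSC2 change was -0.16 without G replicate 1 and -0.019 without G replicate 2.

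Plakoglobin, which also binds classical cadherins and is the closest relative of β-catenin, leaned the other way. JUP (ENSG00000173801, chromosome 17, 41754604 to 41786931, minus strand) was at 109, 110.3 and 100.3 FPKM in A replicates 1, 2 and 3 and at 101, 88.4 and 85.5 FPKM in G replicates 1, 2 and 3. The groups overlapped by a narrow margin, since G replicate 1 lay above A replicate 3. This gave a log2 change of -0.22 ± 0.077 (SE; 95% interval -0.41 to -0.03; limma adjusted p = 0.24). Without A replicate 1 it was -0.20, with an interval of -0.43 to 0.03 that holds 0. The interval also held 0 without A replicate 2, G replicate 2 or G replicate 3. It held 0 with equal sums of FPKM per library (log2 change -0.11, 95% interval -0.30 to 0.08) as well. So it did with quantile normalization (-0.15, -0.34 to 0.03) and with mitochondrial genes left out (-0.17, -0.37 to 0.02). With median-ratio factors the JUP change was -0.24, with an interval of -0.43 to -0.05.

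The plakophilins, which cluster cadherins and recruit desmoplakin, gave differences of both signs. PKP2 (ENSG00000057294, chromosome 12, 32790745 to 32896840, minus strand) was at 32.7, 27.7 and 28.3 FPKM in A libraries and 35.3, 30.3 and 36.1 FPKM in G libraries (log2 change 0.19, 95% interval -0.03 to 0.42, limma adjusted p = 0.35). Without A replicate 1 the PKP2 change was 0.26, with an interval of 0.04 to 0.49 (limma adjusted p = 0.19). Without G replicate 2 it was 0.27 (0.05 to 0.49). Leaving out A replicate 2 or 3 or G replicate 1 or 3 gave 0.15 to 0.16, with intervals that held 0. With equal sums of FPKM per library the PKP2 change was 0.30 (0.06 to 0.54). Over the 17 settings its limma adjusted p ranged from 0.14 to 0.61. PKP3 (ENSG00000184363, chromosome 11, 392614 to 404908, plus strand) was at 24.5, 27.0 and 25.0 FPKM in A libraries and 21.2, 24.8 and 22.9 FPKM in G libraries (log2 change -0.15, 95% interval -0.33 to 0.03, limma adjusted p = 0.36). In each of these genes a single library made the groups overlap: G replicate 2 lay below A replicate 1 for PKP2 and above it for PKP3. PKP4, also called p0071, a plakophilin found at adherens junctions as well (ENSG00000144283, chromosome 2, 158456964 to 158682879, plus strand), was at 3.84, 3.55 and 3.41 FPKM in A libraries and 3.76, 3.68 and 4.53 FPKM in G libraries (log2 change 0.12, 95% interval -0.10 to 0.33, limma adjusted p = 0.53). It was 0.039 without G replicate 3, the library with the highest PKP4 value.

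PERP (ENSG00000112378, chromosome 6, 138088505 to 138107419, minus strand) had the log2 change nearest to 0 of the 8 tested members. It was at 90.2, 89.7 and 95.8 FPKM in A libraries and 96.2, 83.3 and 92.2 FPKM in G libraries, with the groups interleaved. PERP differed by -0.02 on the log2 scale (95% interval -0.18 to 0.14, limma adjusted p = 0.88), that is, between 0.88 and 1.10 times on the FPKM + 1 scale. Its sign turned with the scaling: it was 0.085 with equal sums of FPKM per library and 0.053 with quantile normalization.

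**Figure D3:**
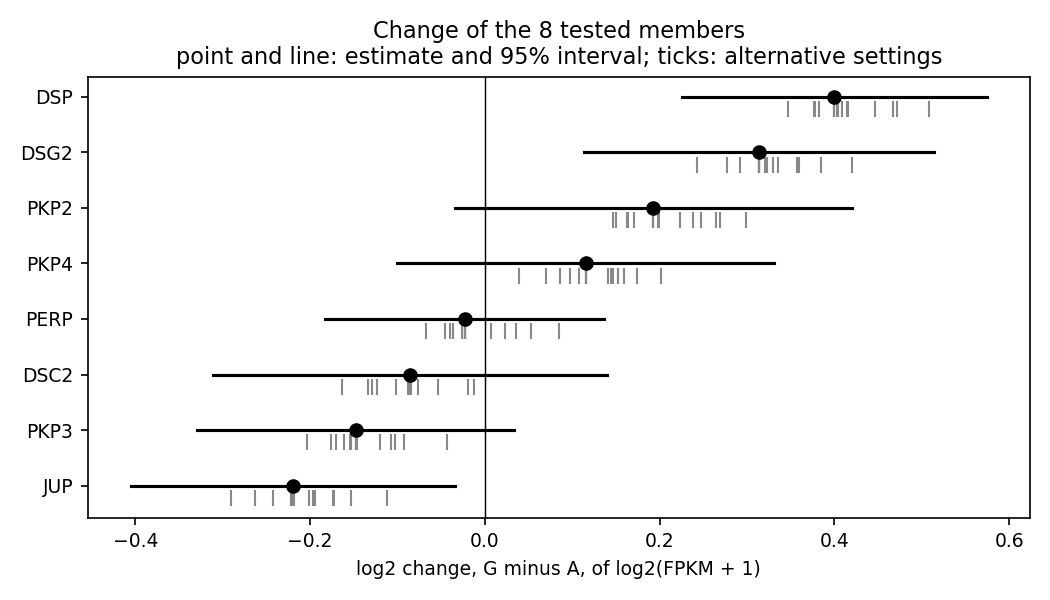
Log2 change (G minus A, of log2(FPKM + 1)) of the 8 tested members, with points and lines for the estimate and its 95% interval and ticks for the 17 alternative settings. The intervals of DSP, DSG2 and JUP lie off 0 before adjustment, and the ticks of PERP fall on both sides of 0.

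Ratios within a library do not depend on how libraries are scaled. Their size does rest on the fixed length behind each gene value. The ratio of DSP to JUP was 0.95, 0.80 and 0.92 in A replicates 1, 2 and 3 and 1.28, 1.40 and 1.43 in G replicates 1, 2 and 3. The ratio of DSG2 to JUP was 0.39, 0.31 and 0.38 in A libraries and 0.50, 0.52 and 0.54 in G libraries. For both ratios the G libraries lay above the A libraries. The ratio of DSP to DSG2, in contrast, was 2.42 to 2.55 in A and 2.58 to 2.68 in G libraries, close to each other but not overlapping. Of the summed FPKM of the 9 members, DSP held 22.9% to 25.5% in A and 29.4% to 30.7% in G libraries, and JUP held 26.0% to 28.8% in A and 20.7% to 23.0% in G libraries. Shares in a library depend on each other, so a larger DSP share lowers that of JUP, whose own FPKM overlapped between the groups. The sum itself was 383 to 409 FPKM in A and 402 to 439 FPKM in G libraries, which overlap. The pairs were chosen after the values were seen and are descriptions without a test.

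**Figure D4:**
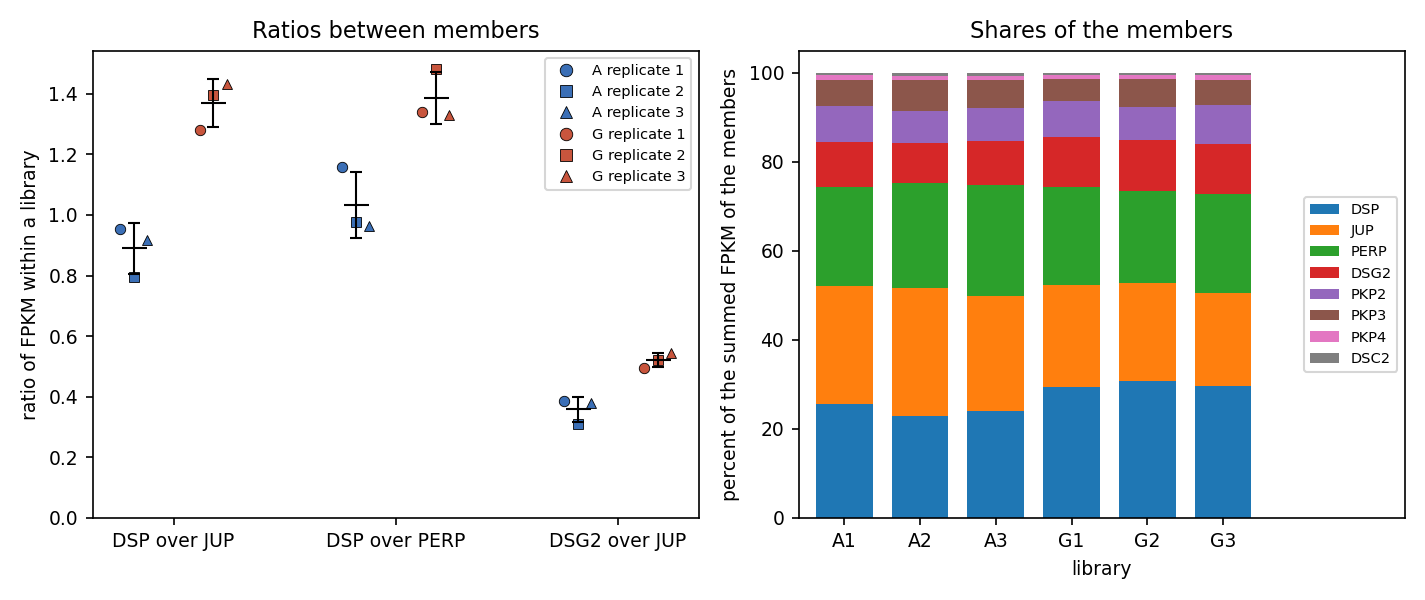
Left, ratios of FPKM between members within each library (points are libraries, bars the group mean ± SD, n = 3). Right, each member's percent of the summed FPKM of the members in libraries A1 to A3 and G1 to G3. The DSP share is larger and the JUP share smaller in each G library than in each A library, and shares in a library depend on each other.

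The promoters of DSP and DSG2 are shown because these were the members whose groups did not overlap. The windows are the 250 bases before the RefSeq start (GRCh38.p14, plus strand), which coincides with the start of each gene's main transcript in the deposited table. Printed are the bases upstream of the earliest annotated transcript, 154 for DSP at chr6:7541421-7541574 and 116 for DSG2 at chr18:31497927-31498042. Capitals mark matches to CACCTG or its reverse complement CAGGTG, the E-box that the repressors ZEB1 and SNAI2 can bind.
DSP: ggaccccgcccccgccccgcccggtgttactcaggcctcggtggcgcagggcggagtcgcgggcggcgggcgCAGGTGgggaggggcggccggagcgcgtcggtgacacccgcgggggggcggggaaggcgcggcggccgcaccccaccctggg
DSG2: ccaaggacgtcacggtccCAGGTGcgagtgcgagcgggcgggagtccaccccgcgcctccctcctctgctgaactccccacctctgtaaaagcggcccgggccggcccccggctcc
In the whole window CACCTG had 2 matches in DSP and 2 in DSG2, counting both strands, and 17.5% of the 35116 RefSeq windows of that length hold it. AACCGG, the core of sites of the grainyhead-like factors GRHL1 to GRHL3, had 1 match in DSP, downstream of the printed bases, and is held by 5.99% of windows. The forkhead motif TGTTTAC and the motif TTTGAA of cell cycle promoters, both tied to FOXM1 targets, matched neither window, and 2.98% and 13.3% of windows hold them. Of the 7 members with a RefSeq window, CACCTG was held by 3 (DSP, DSG2 and DSC2) and AACCGG by 2 (DSP and DSC3). TGTTTAC was held by 1 (PERP) and TTTGAA by 0. Such matches describe letters and not binding.

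At transcript level 20 transcripts of 8 members passed the filter, and none was called by limma over 29990 transcripts, beside 0.147% of all transcripts tested. At an unadjusted p under 0.05 it was 3, beside 7.81% of all transcripts. The groups did not overlap for 5 transcripts higher and 2 lower in G, beside 9.59% and 6.40% of all transcripts (16.0% in either direction). The smallest adjusted p was 0.33, for the long DSP transcript. The gene FPKM of each of these 8 members was proportional, within 0.0051%, to the sum of its transcripts' FPKM times length. Reads assigned to another isoform of the same gene thus move transcript values and leave the gene's value in place.

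DSP makes a long and a short desmoplakin that differ in the length of the central rod. Their coding sequences are shared for 3582 bases, after which the short form skips 1797 bases and rejoins the long form to its end, giving 2871 and 2272 codons. The junction is shown with the last 30 shared bases in lower case and the next 30 bases in capitals, from GENCODE release 29. The capitals lie on the plus strand at chr6:7579773-7579802 in the long form and at chr6:7582642-7582671 in the short form.
DSP long: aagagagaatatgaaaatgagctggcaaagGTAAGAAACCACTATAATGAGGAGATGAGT
DSP short: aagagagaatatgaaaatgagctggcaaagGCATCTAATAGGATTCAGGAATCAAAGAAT
The long form (ENST00000379802) was at 83.3, 71.5 and 75.9 FPKM in A libraries and at 102, 103 and 102 FPKM in G libraries. Its log2 change was 0.41 (95% interval 0.21 to 0.61). The short form (ENST00000418664) was at 30.9, 24.0 and 24.2 FPKM in A libraries and 39.7, 31.2 and 31.5 FPKM in G libraries, with a log2 change of 0.36 (95% interval -0.03 to 0.75, limma adjusted p = 0.65). Both forms were thus higher in the G libraries without overlap. The long form held 72.9%, 74.8% and 75.7% of the summed DSP transcript FPKM in A libraries and 71.9%, 76.7% and 76.3% in G libraries (exact two-sided permutation p = 0.7, smallest possible 0.1).

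DSC2 has an a form with a long cytoplasmic tail that binds plakoglobin and a b form whose tail is cut short. The forms part after an identical stretch, given in lower case, and the a form then has 195 coding bases of its own and the b form 33. The first 30 of these are in capitals, on the minus strand at chr18:31068183-31068212 for the a form and chr18:31068315-31068344 for the b form.
DSC2 a: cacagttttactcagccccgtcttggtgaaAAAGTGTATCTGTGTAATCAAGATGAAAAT
DSC2 b: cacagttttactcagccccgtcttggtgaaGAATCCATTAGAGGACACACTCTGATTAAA
The a form (ENST00000280904) held 61.6%, 25.9% and 79.2% of DSC2 transcript FPKM in A libraries and 76.4%, 32.6% and 25.6% in G libraries. The share ranged as widely within each group as between them. For the b form (ENST00000251081), the transcript with the higher mean, it was 20.4% to 74.0% in A and 21.0% to 74.4% in G libraries (exact two-sided permutation p = 0.7). 

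The main transcript of PKP2, ENST00000340811, held 90.0% to 92.7% of PKP2 transcript FPKM in A libraries and 92.7%, 66.1% and 90.9% in G replicates 1, 2 and 3 (exact two-sided permutation p = 0.9). The lower share in G replicate 2 was thus that of a single library. The smallest p of a PKP2 transcript was that of the intron-retaining ENST00000552612, at 0.97, 1.32 and 1.63 FPKM in A and 1.31, 2.80 and 2.55 FPKM in G libraries (limma adjusted p = 0.71).

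G replicate 2 also stood apart for JUP. Its annotated full-length transcripts ENST00000393931, ENST00000310706 and ENST00000393930 have coding sequences of equal length, 2235 bases, and start at different positions. ENST00000310706 was at 62.8, 78.4 and 62.96 FPKM in A libraries and at 55.5, 1.53 and 34.3 FPKM in G replicates 1, 2 and 3, while ENST00000393930 was at 35.9 FPKM in G replicate 2 and at most 0.0087 FPKM elsewhere. ENST00000393931, the main transcript, was at 91.5, 76.8 and 74.7 FPKM in A and 83.1, 81.6 and 81.7 FPKM in G libraries (log2 change 0.03, 95% interval -0.22 to 0.27, limma adjusted p = 0.96). For ENST00000310706, lower in G without overlap, the 95% interval of the log2 change ran from -4.98 to 0.97 (limma adjusted p = 0.72).

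**Figure D5:**
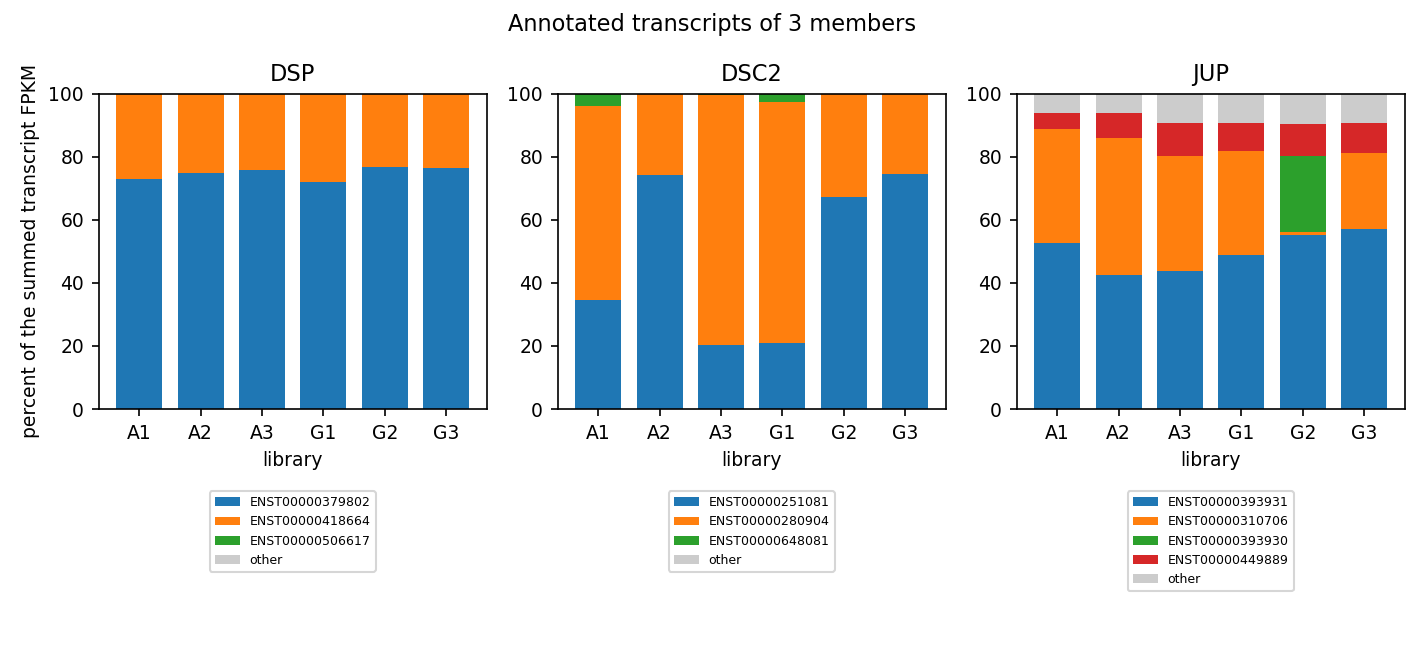
Percent of the summed transcript FPKM of DSP, DSC2 and JUP held by their leading annotated transcripts in each library (A1 to A3, G1 to G3). The split of DSP is near constant, that of DSC2 changes from library to library, and G2 alone shows ENST00000393930 of JUP as a sizeable part.

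The main transcript of the other members carried most of the gene in DSG2 and PKP3. ENST00000261590 held 97.7% to 99.7% of DSG2, and PERP has a single annotated transcript, ENST00000421351. ENST00000331563 held 83.8% to 91.7% of PKP3, with means of 33.5 ± 1.52 and 30.0 ± 2.27 FPKM for A and G (SD, n = 3), lower without overlap (limma adjusted p = 0.73). A short intron-retaining PKP3 transcript, ENST00000524646, was at 0.00039, 0.62 and 0.41 FPKM in A libraries and 1.37, 1.75 and 2.12 FPKM in G libraries (log2 change 1.05, 95% interval 0.44 to 1.66, limma adjusted p = 0.44). PKP4 was the most divided: its main transcript ENST00000389757 held 19.0% to 52.0%, and the intron-retaining ENST00000480171 held 15.8% to 33.9%.

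Apart from the plakins and CDSN, the other desmosome genes did not exceed 0.11 FPKM. CDSN ranged from no estimate in A replicate 2 to 1.41 FPKM in G replicate 1. Of DSG1, DSG3, DSG4, DSC1, PKP1, CDSN, PPL and EVPL, only PPL and EVPL, scaffold proteins of the cornified envelope, passed the filter. Periplakin (PPL) was at 30.4, 25.8 and 26.6 FPKM in A libraries and 28.7, 31.8 and 29.98 FPKM in G libraries (log2 change 0.12, limma adjusted p = 0.45), and without A replicate 1 its log2 change was 0.19 (limma adjusted p = 0.18). Envoplakin (EVPL) was at 13.3 FPKM in A replicate 1 against 3.37 and 3.64 FPKM in A replicates 2 and 3 and 4.59, 4.48 and 6.19 FPKM in G libraries. Its log2 change was -0.13 and became 0.42 without A replicate 1 (limma adjusted p = 0.90 and 0.19). Neither gene was called with or without A replicate 1. An unadjusted p under 0.05 was reached by 0 of the 2 with it, beside 2212 of the 12787 genes tested, and by 2 of the 2 without it, beside 2704 of the 12589 genes then tested.

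Keratins and other cytolinkers, the filament side of the junction, counted 11 tested of 15 genes. None was called, beside 0.109% of all genes, and 5 had an unadjusted p under 0.05, beside 17.3% of all genes. The log2 change was positive in 5, and the median was -0.05. With equal sums of FPKM per library, which moves the median of all genes from 0.02 to 0.11, it was positive in 7 with a median of 0.05, and without A replicate 1 it was positive in 6 with a median of 0.02. The most abundant was KRT19, at 1479 ± 110.5 FPKM with A and 1396 ± 95.6 FPKM with G. KRT7 was at 426, 468 and 443 FPKM in A libraries and 341, 381 and 384 FPKM in G libraries (limma adjusted p = 0.18), lower in G without overlap. Of the 11 tested, 3 were lower and 3 higher in G without overlap, beside 9.57% and 15.4% of all genes. KRT80 had the largest log2 change of the list, at 41.3 ± 3.26 FPKM with A and 58.4 ± 12.5 FPKM with G (limma adjusted p = 0.24). MACF1, a giant plakin that links actin and microtubules, was at 1.92, 1.31 and 1.49 FPKM in A libraries and 2.13, 2.41 and 2.37 FPKM in G libraries (limma adjusted p = 0.20). The related DST was at 1.06 ± 0.105 FPKM with A and 1.48 ± 0.087 FPKM with G (limma adjusted p = 0.21).

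Among 22 known regulators of desmosome genes and proteins, 20 were tested, 0 were called and 5 had an unadjusted p under 0.05, where 0.109% and 17.3% of all genes did. The median log2 change was -0.01, and 9 were positive. With equal sums of FPKM per library 15 were positive (median 0.07), and without A replicate 1 it was 10 (median 0.0031). The largest in level was RHOA at 127 ± 2.53 FPKM with A and 122 ± 3.31 FPKM with G. EGFR, the target of gefitinib, whose signalling loosens desmosomes, was at 73.5, 61.8 and 65.9 FPKM in A libraries and 84.8, 86.2 and 83.6 FPKM in G libraries (limma adjusted p = 0.16). The kinase GSK3B was at 14.1 ± 0.45 FPKM with A and 15.8 ± 0.31 FPKM with G (limma adjusted p = 0.23), and the epithelial repressor OVOL2 at 5.37 ± 0.33 and 4.60 ± 0.13 FPKM (limma adjusted p = 0.25). Of the repressors that can bind CACCTG, ZEB1 did not exceed 0.046 FPKM, whereas SNAI2 was at 0.90 to 1.06 FPKM (log2 change -0.01, limma adjusted p = 0.96). TP63 did not exceed 0.41 FPKM.

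Of 9 adherens junction partners 7 were tested, and all 7 had a positive log2 change, where 55.1% of all genes did. None was called, beside 0.109% of all genes, and 3 had an unadjusted p under 0.05, beside 17.3%. The median log2 change was 0.14. The 7 were also positive under quantile normalization and median-ratio factors, but CTNNA1 was at -0.018 without G replicate 1 and CDH1 at -0.030 without G replicate 2. CDH3, P-cadherin, was at 25.6, 24.9 and 26.5 FPKM in A libraries and 28.3, 28.8 and 28.7 FPKM in G libraries (limma adjusted p = 0.21). CTNND1, the p120 catenin related to the plakophilins and the most abundant of this list, was at 49.3 ± 1.82 FPKM with A and 54.3 ± 2.02 FPKM with G (limma adjusted p = 0.26). VCL, the actin linker vinculin, was at 21.2 ± 1.97 FPKM with A and 24.8 ± 0.24 FPKM with G (limma adjusted p = 0.22).

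The genes whose log2 values followed DSP most closely over the 6 libraries were PRRC1 (Pearson r = 0.999), ARFGEF2, which acts in vesicle traffic (0.998), MEGF9 (0.996), the Hippo pathway gene MOB1B (0.995) and the microtubule-depolymerizing kinesin KIF2A (0.995). With 6 libraries such values are common: 886 tested genes had an r above 0.9, and the points are 3 libraries of each allele. ARFGEF2 was at 16.5, 13.9 and 14.6 FPKM in A libraries and 19.5, 18.6 and 18.6 FPKM in G libraries. Among the members DSG2 was nearest to DSP (r = 0.98), then PKP2 (0.81) and PKP4 (0.58). PERP (-0.12), DSC2 (-0.34), JUP (-0.67) and PKP3 (-0.81) had negative values.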

How the data were processed

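RNA was measured in 6 PC9 libraries, 3 per FOXM1 allele, after poly(A) selection and paired-end sequencing, per the labels' protocols. Tools named in the submitters' processing notes are StringTie 1.3.4d, HISAT2 2.0.4 and cutadapt 1.9. The notes name a mouse build, but the identifiers are human: 94.6% of 206348 transcripts, and 53 of the members' 60, sit at their GRCh38 place in GENCODE release 29. The deposited tables hold FPKM per gene and per transcript, with 0.0001 for no estimate. Per the file headers, the same tables give p-values and q-values of the authors, a fold ratio and the log2 of that ratio. The authors' test is not given in the sources used here. Read depth is unknown: of low values of single-exon genes 34.2% to 38.7% were whole multiples, within 0.02, of the best-fitting read step. Whole reads could not be recovered from them, which leaves out count models.

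The scale was log2(FPKM + 1), which understates changes of low genes. Genes and transcripts with at least 1 FPKM in at least 3 libraries were tested with limma 3.58.1 with an intensity trend in R 4.3.3. P-values were adjusted by Benjamini-Hochberg over all features tested, with a threshold of 0.05. The fit was tested on simulated data. Python 3.11.15 with pandas 2.3.3 served for the other steps. Alternatives changed the pseudocount, filter, scaling, variance model, library weights, replicate block and set of libraries.

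The members and lists were chosen with earlier results of these data known. Named beside the members are FOXM1, each member's main transcript and that with its smallest p, up to 3 genes per list with the smallest p, each list's most expressed gene, and the 5 genes most like DSP. ZEB1, SNAI2, TP63, CTNNA1, CDH1, EPCAM, CDSN, KRT80, PKP4's intron-retaining transcript and the JUP transcript of a single library were named after their values were seen. No member overlaps a same-strand gene above 2.02 FPKM. A further transcript result is not reported here. The labels do not say whether replicates were separate cultures, so p-values cover only the spread among the 6 libraries, possibly a technical one.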

Additional observations from a re-analysis of the deposited data

How the results depend on the processing

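No member and no transcript of a member was called by limma in any setting run, with the lowest adjusted p of a member at 0.068. Of the 136 member values over 17 settings 5 turned their sign, all of PERP: the log2 change was 0.085 with equal sums of FPKM per library, 0.053 with quantile normalization, 0.023 with mitochondrial genes left out, 0.0069 without A replicate 3 and 0.035 without G replicate 2 (-0.067 to 0.035 with 1 library left out). The number of called genes, 14 over all genes, was 6 with quantile normalization, 1 with the filter on low values dropped, 4 without an intensity trend, 6 with mitochondrial genes left out and 54 by q-value in the authors' deposited table. It ranged from 2 to 14 with 1 library left out, and was 2 without A replicate 3, 4 without A replicate 2, 6 without G replicate 2 and 5 without G replicate 3. With the replicate number as a block it was 0 by limma (2148 genes at an unadjusted p under 0.05). By the labels, same-numbered libraries share only a number, and whether they were handled together is not given. The correlations of their deviations were 0.07, 0.02 and 0.04, and all but G replicate 2 correlated best with their own number. The block changed no call of a member. The causes were not tested. With 3 libraries per group and an unknown read depth, the precision of each member is that of its 95% interval.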
